A study of Mus musculus with 6 samples.

Results

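The fatty acid oxidation genes described here are 38 listed mouse genes that bring long-chain fatty acids into mitochondria, break them down there or in peroxisomes, or control those steps. They were taken by gene symbol as rows of the deposited count table, which holds 16281 genes. All 38 were found, and 37 passed the filter on low counts and were tested. The cells were CD8+ T cells from the spleens of OT1 mice (strain C57BL/6, genotype Tg(TcraTcrb)1100Mjb), whose transgenic T-cell receptor recognizes an ovalbumin peptide, and no age was given in the sources used here. All cultures were activated for 48 h with plate-bound anti-CD3 and soluble anti-CD28 in the presence of IL-2 and then expanded with IL-2 for 3 days. In 3 of them 0.5 μM GSK2879552 (GSK), an irreversible inhibitor of the histone demethylase LSD1, was present throughout, and the other 3 received vehicle (Veh). The cells thus shared 1 receptor specificity and were stimulated in culture, without antigen-bearing target cells. Cultures came from 3 separate mice, and the sources used here do not state whether a Veh and a GSK culture with the same number came from the same mouse.

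Fatty acids are first activated to acyl-CoA, then carried across the mitochondrial membranes as carnitine esters, and then shortened stepwise by dehydrogenation, hydration, a further dehydrogenation and thiolysis. Electrons from the acyl-CoA dehydrogenases pass through the electron transfer flavoprotein to the respiratory chain, and peroxisomes handle very long and branched chains. Activated effector CD8+ T cells are known for high glycolysis, and memory CD8+ T cells for a greater use of fatty acid oxidation, with Cpt1a as the best-known control point.

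Library totals ran from 18288447 to 18918811 counts in Veh and from 19149909 to 19846720 in GSK, so every GSK sample was deeper than every Veh sample. GSK replicate 2 and GSK replicate 3 differed most within a group, where the chi-square of their counts was 9.02 per degree of freedom, against 3.95 to 4.66 for the other replicate pairs. Of the CD8 T-cell markers, 5 were in the table and summed to 1937 to 2036 CPM (counts per 1000000 of the TMM-scaled library total) in Veh and 1752 to 1869 CPM in GSK. Among them Cd3d, Cd3e and Cd3g fell, with log2 fold changes of -0.16, -0.23 and -0.38, while Cd8a (0.07, adjusted p = 0.20) and Cd8b1 (-0.11, adjusted p = 0.072) did not pass. The summed markers of CD4 T cells ran from 3.47 to 5.00 CPM in Veh and from 3.59 to 5.46 in GSK, those of B cells at 6.20 to 8.16 and 7.82 to 9.21, those of myeloid cells at 11.8 to 16.8 and 11.0 to 14.7, and those of NK cells at 1.52 to 2.36 and 2.33 to 3.73. Of the markers of other cell types, the B-cell gene Cd22 rose from a mean of 0.409 to 2.60 CPM (log2 fold change 2.65, adjusted p = 1.51e-04), the myeloid gene Tyrobp rose (1.43, adjusted p = 0.047) and the myeloid gene Fcgr3 fell (-1.21, adjusted p = 0.036). No listed marker that was in the table had 0 reads over the series, and the part of these differences in the results below was not tested. Kdm1a, which encodes LSD1, averaged 92.8 ± 5.45 CPM in Veh and 87.1 ± 3.54 in GSK (SD, n = 3; log2 fold change -0.09, adjusted p = 0.22), and since an enzyme inhibitor need not lower the transcript, it does not check the labels. In bulk RNA, fewer expressing cells and less RNA per cell cannot be told apart.

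The comparison asked how blocking LSD1 during activation and expansion altered the RNA of the fatty acid oxidation genes. In GSK, 11 of the 37 members tested fell, among them the carnitine acyltransferases Cpt1a, Crat and Crot, the electron carrier Etfdh, the peroxisomal oxidase Acox3 and the lipid-sensing receptor Ppard, and 1 rose, the acyl-CoA synthetase Acsl5. The other 25 did not pass an adjusted p of 0.05 (edgeR's quasi-likelihood test, Benjamini-Hochberg adjustment over 11698 genes). The share of members that fell was 29.7%, where 15.5% of all genes tested fell, and the share that rose was 2.70%, where 16.6% of all genes tested rose. DESeq2 called 7 members lower in place of 11, and with 1 library left out 6 were lower without Veh replicate 1 or GSK replicate 1, 5 without Veh replicate 3, 7 without GSK replicate 3, 8 without Veh replicate 2 and 10 without GSK replicate 2. The differences were small in size. With the added condition of a fold change over 1.5, 0 members were higher and 0 lower, against 2.22% and 4.09% of all genes tested, and DESeq2 also called 0 and 0. At an unadjusted p under 0.05, 3 members were higher and 15 lower, where 21.8% and 21.2% of all genes tested were.

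The log2 fold changes of the members lay between -0.53 and 0.49, with 24 below 0 and 13 above. Their median was -0.04, where the median of all genes tested was -0.0039, and 64.9% of the members lay below 0 where 50.7% of all genes did. The median deviation of the members from their Veh means was -0.022 in GSK replicate 1, -0.050 in GSK replicate 2 and -0.051 in GSK replicate 3, on the log2 scale. For 14 members all GSK samples lay below all Veh samples, which held for 23.0% of all genes tested. For 3 members all GSK samples lay above, which held for 23.7% of all genes, and for 20 the groups overlapped.

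**Figure D1:**
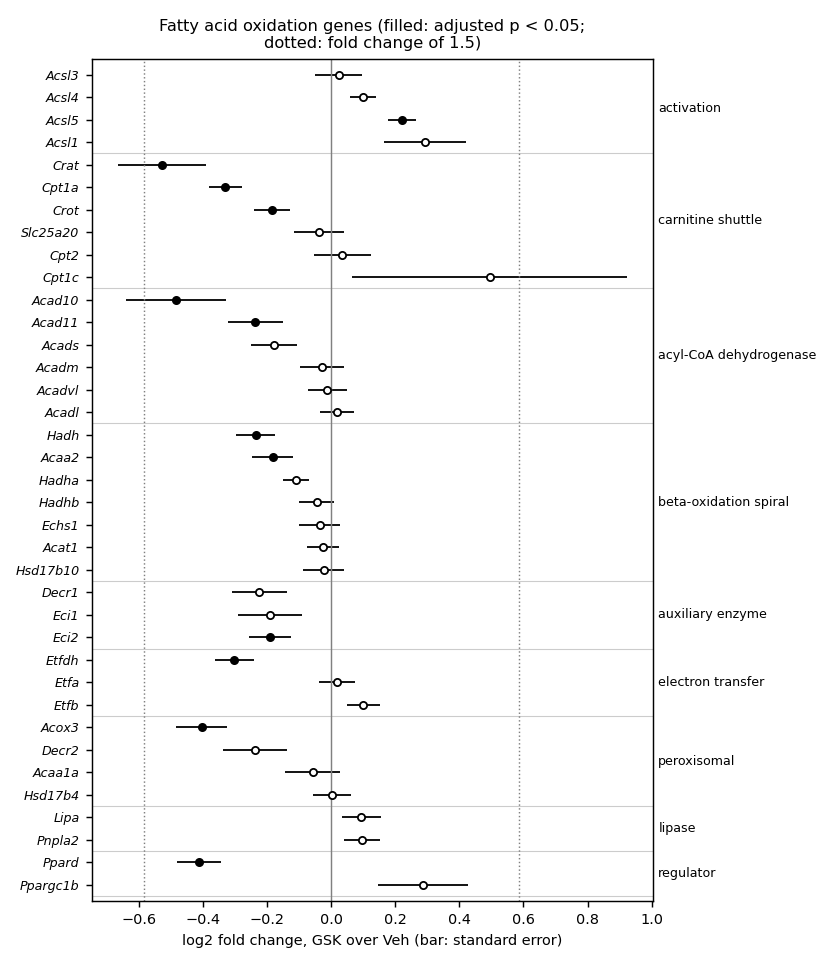
Log2 fold change of each of the 37 members tested (GSK over Veh, x axis; points are estimates, bars standard errors, n = 3 per group), grouped by role, with filled points at an adjusted p under 0.05 and dotted lines at a fold change of 1.5. The filled points are 1 to the right of 0 and 11 to the left, none of them beyond the dotted lines.

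Acyl-CoA synthetases attach coenzyme A to long-chain fatty acids, the step before either oxidation or lipid synthesis. All 4 listed synthetases had estimates above 0, as did 5770 of all 11698 genes tested. The estimate of Acsl3 changed sign with upper-quartile scaling and without Veh replicate 1 or GSK replicate 1. Acsl5 was the member that rose (25.0% of the 4, against 16.6% of all genes tested). Acsl5, found on mitochondria and the endoplasmic reticulum, gave 380, 371 and 368 CPM in the Veh samples and 433, 413 and 458 CPM in the GSK samples. Every GSK sample lay above every Veh sample. The mean went from 373 ± 5.97 to 435 ± 22.6 CPM (SD, n = 3), a log2 fold change of 0.22 with a standard error (SE) of 0.043 (adjusted p = 0.0020). The call was made under all 12 alternatives of processing. Acsl4, which prefers arachidonic acid, had GSK samples above all Veh samples but missed the threshold (log2 fold change 0.10, adjusted p = 0.079). Acsl1 and Acsl3 overlapped between the groups, with log2 fold changes of 0.29 (adjusted p = 0.10) and 0.02 (adjusted p = 0.83). Per kilobase of exon, Acsl5 made up 63.9% of the summed level of these synthetases in Veh and 65.8% in GSK, and Acsl1 2.39% and 2.59%.

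Acsl5 lies on chromosome 19 from 55251861 to 55296628 (GRCm38, plus strand). Exons of Zdhhc6 on the opposite strand cover 3.94% of its exon length, and the counting's strand setting was not given in the sources used here. The sequence before a RefSeq start at 55253369, which lies inside that span, is shown because Acsl5 was the only member that rose. It comes from RefSeq (GRCm38.p6), spans chr19:55253119-55253368 on the plus strand and holds none of the motifs searched, which were AGGTCA, bound by nuclear receptors including the PPARs as part of a longer element, the hypoxia response core ACGTG, and the E-box CACGTG, itself one way of extending ACGTG.
Acsl5: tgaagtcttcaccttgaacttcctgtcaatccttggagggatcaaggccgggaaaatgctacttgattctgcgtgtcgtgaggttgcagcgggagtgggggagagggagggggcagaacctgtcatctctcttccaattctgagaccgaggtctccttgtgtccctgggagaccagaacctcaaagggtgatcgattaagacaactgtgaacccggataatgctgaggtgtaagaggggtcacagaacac

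The carnitine shuttle moves acyl groups across the mitochondrial membranes. Of the 6 members tested that were listed with it, 3 fell (50.0%, against 15.5% of all genes tested) and 0 rose. Of these, Crot is peroxisomal, and of Cpt1a, Slc25a20 and Cpt2 only Cpt1a fell. Cpt1a, the rate-limiting acyltransferase of the outer membrane and the site of inhibition by malonyl-CoA, gave 92.2, 88.6 and 95.3 CPM in Veh and 76.2, 73.1 and 70.3 CPM in GSK. The groups did not overlap, and the gap between them was wider than the range within either. Cpt1a fell by 20.5%, from 92.0 ± 3.33 to 73.2 ± 2.92 CPM (SD, n = 3), a log2 fold change of -0.33 with an SE of 0.052 (adjusted p = 4.93e-04). The test was passed under all 12 alternatives, with a largest adjusted p of 0.0049. Among the Cpt1 genes, Cpt1a made up 89.9% of the level per kilobase in Veh and 87.5% in GSK. Cpt1c, the brain form, had 69 reads over all samples (14, 8 and 6 in Veh and 13, 13 and 15 in GSK). Its log2 fold change of 0.49 had a standard error of 0.43 (adjusted p = 0.41), and a difference was not detectable at this depth.

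Cpt1a spans 3322326 to 3385735 on chromosome 19 (GRCm38, plus strand). The sequence before a RefSeq start is shown because Cpt1a had the smallest p of the members that fell. The stretch chr19:3323051-3323284 (RefSeq, GRCm38.p6, plus strand) lies inside this span, before the RefSeq start at 3323301. The 16 bases next to the start that fall in an annotated exon were left out. Which start the cells used was not tested for Cpt1a or Acsl5. The capitals mark TGACCT, the reverse complement of AGGTCA, 94 to 89 bases before the start.
Cpt1a: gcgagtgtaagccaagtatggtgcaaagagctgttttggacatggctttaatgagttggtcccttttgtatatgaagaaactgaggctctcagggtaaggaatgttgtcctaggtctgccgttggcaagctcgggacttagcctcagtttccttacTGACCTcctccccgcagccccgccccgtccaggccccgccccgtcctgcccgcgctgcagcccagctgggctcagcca

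The inner-membrane partners of Cpt1a did not pass the test. Cpt2, which turns acylcarnitine back into acyl-CoA, gave 17.6, 17.4 and 19.9 CPM in Veh and 18.0, 20.1 and 18.1 CPM in GSK. Slc25a20, the carnitine/acylcarnitine translocase, gave 25.6, 23.6 and 27.4 CPM in Veh and 25.4, 25.6 and 23.7 CPM in GSK. Both pairs of groups overlapped. The log2 fold change of Cpt2 was 0.03 (adjusted p = 0.80), with a 95% interval of the fold change from 0.896 to 1.17, and that of Slc25a20 was -0.04 (adjusted p = 0.74; interval 0.865 to 1.10).

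The other acyltransferases listed with the shuttle act on short and shortened chains. Crat, which makes acetylcarnitine from acetyl-CoA, gave 11.6, 10.4 and 14.3 CPM in Veh and 8.14, 7.74 and 9.28 CPM in GSK. Each GSK sample was below each Veh sample, though Veh replicate 3 stood above its group. Crat had the largest estimated decrease of any member, with a log2 fold change of -0.53 (SE 0.138, adjusted p = 0.011), and the call was lost without Veh replicate 3 (adjusted p = 0.064). Crot, the peroxisomal octanoyltransferase that exports chain-shortened products, gave 98.5, 95.8 and 99.7 CPM in Veh and 82.3, 93.7 and 82.5 CPM in GSK. GSK replicate 2 came close to the Veh samples and the other 2 GSK samples lay well below. Its log2 fold change was -0.18 (SE 0.057, adjusted p = 0.025), lost in 4 of the 12 alternatives, those without Veh replicate 1, Veh replicate 3, GSK replicate 1 or GSK replicate 3 (largest adjusted p 0.12). Opposite-strand exons cover 1.30% of Crat (Dolpp1) and 5.54% of Crot (Gm37153).

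**Figure D2:**
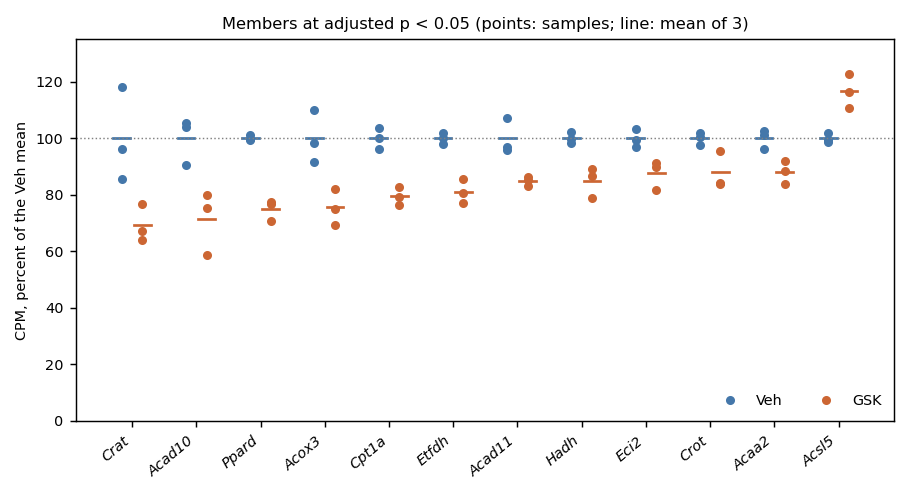
CPM of each sample as a percent of the gene's Veh mean (y axis, starting at 0) for the 12 members at an adjusted p under 0.05, with points for samples and lines for the mean of 3. The 3 GSK points lie below the 3 Veh points for 11 genes and above them for Acsl5.

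Acyl-CoA dehydrogenases carry out the first oxidation of each round and differ in the chain length they accept. Neither Acadvl nor Acadm passed the test. Acadvl, for very long chains, gave 62.3, 66.8 and 66.6 CPM in Veh and 68.6, 60.1 and 65.5 CPM in GSK. Acadm, for medium chains, gave 37.5, 35.2 and 32.8 CPM in Veh and 35.5, 34.0 and 33.9 CPM in GSK. For both genes the GSK samples lay within or across the Veh range. The log2 fold changes were -0.01 for Acadvl (adjusted p = 0.90, fold interval 0.906 to 1.09) and -0.03 for Acadm (adjusted p = 0.79, fold interval 0.884 to 1.09), and exons of Dvl2 on the opposite strand cover 45.0% of Acadvl. Acadl, for long chains, and Acads, for short chains, had log2 fold changes of 0.02 (adjusted p = 0.82) and -0.18 (adjusted p = 0.076).

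Of the 6 dehydrogenases, the 2 that fell (33.3%, against 15.5% of all genes tested) were the less studied Acad10 and Acad11. Acad11, which takes long-chain substrates, gave 18.1, 20.3 and 18.3 CPM in Veh and 15.7, 16.3 and 16.1 CPM in GSK. Acad10 gave 7.83, 6.81 and 7.94 CPM in Veh and 5.67, 6.02 and 4.43 CPM in GSK. In both genes every GSK sample lay below every Veh sample. Acad11 had a log2 fold change of -0.24 (SE 0.085, adjusted p = 0.049) and Acad10 one of -0.48 (SE 0.156, adjusted p = 0.030). These calls were fragile, since Acad11 passed in 3 and Acad10 in 6 of the 12 alternatives, and neither passed with DESeq2. Of the 31-base words of Acad10 transcripts, 22.9% also occur in the neighbouring copy Acad12, so reads may have been split between them, and exons of Ackr4 on the opposite strand cover 8.86% of Acad11.

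The enzymes that complete each round of beta-oxidation are the hydratases, hydroxyacyl-CoA dehydrogenases and thiolases. All 7 tested had estimates below 0, from -0.24 to -0.02 on the log2 scale, where 50.7% of all genes tested lay below 0. Of the 7, 2 fell (28.6%, against 15.5% of all genes tested). Echs1 and Hsd17b10 changed sign, both to 0.0098, the former without Veh replicate 3 and the latter without GSK replicate 2. Hadh, the mitochondrial hydroxyacyl-CoA dehydrogenase for short and medium chains, gave 55.6, 54.3 and 53.5 CPM in Veh and 47.2, 43.0 and 48.6 CPM in GSK. The Veh samples were close together and all above the GSK samples. Its log2 fold change was -0.24 (SE 0.061, adjusted p = 0.011), and it passed under all 12 alternatives. Hadh lies on chromosome 3 from 131233419 to 131272101 (GRCm38, minus strand). Acaa2, the mitochondrial thiolase, gave 39.9, 42.6 and 42.0 CPM in Veh and 34.9, 36.6 and 38.2 CPM in GSK. Its groups were separate by a narrow gap. The log2 fold change of Acaa2 was -0.18 (SE 0.064, adjusted p = 0.043), and it passed in 4 of the 12 alternatives.

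Hadha and Hadhb encode the subunits of the mitochondrial trifunctional protein, which handles long chains. Hadha gave 201, 205 and 206 CPM in Veh and 193, 189 and 185 CPM in GSK. All GSK samples lay below all Veh samples, by a margin that was small beside the level. The log2 fold change was -0.11, the 95% interval of the fold change ran from 0.872 to 0.985, and the adjusted p of 0.054 missed the threshold. Hadha was past it with upper-quartile scaling (adjusted p = 0.017) and when at least 1 CPM in 3 samples was required (adjusted p = 0.046). Exons of Garem2 on the opposite strand cover 1.87% of Hadha. Hadhb had overlapping groups and a log2 fold change of -0.05 (adjusted p = 0.55), and 19.5% of its transcript words are shared with Gm13910, so its counts are uncertain. The remaining members of this role, Echs1, Hsd17b10 and Acat1, had log2 fold changes between -0.04 and -0.02.

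Unsaturated fatty acids need auxiliary isomerases and reductases before they can pass through the same steps. All 3 listed had estimates below 0, where 50.7% of all genes tested did, and 1 fell (33.3%, against 15.5% of all genes tested). Eci2, an enoyl-CoA isomerase, gave 43.4, 42.3 and 45.0 CPM in Veh and 39.2, 39.8 and 35.6 CPM in GSK. The groups did not overlap. Its log2 fold change was -0.19 (SE 0.065, adjusted p = 0.040), passed in 5 of the 12 alternatives, and an antisense gene (Gm16984) covers 10.8% of its exons. Eci1, the other isomerase, and Decr1, a dienoyl-CoA reductase, did not pass, with log2 fold changes of -0.19 (adjusted p = 0.17) and -0.22 (adjusted p = 0.061).

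The electron transfer flavoprotein takes electrons from the acyl-CoA dehydrogenases, and its dehydrogenase Etfdh passes them to ubiquinone. Etfdh gave 53.1, 51.1 and 52.1 CPM in Veh and 44.6, 40.1 and 42.0 CPM in GSK. The lowest Veh sample lay well above the highest GSK sample. Etfdh fell from 52.1 ± 0.983 to 42.3 ± 2.26 CPM (SD, n = 3; log2 fold change -0.30, SE 0.060, adjusted p = 0.0023) and passed under all 12 alternatives. The gene lies on chromosome 3 from 79603788 to 79628767 (minus strand). The flavoprotein's own subunits did not pass, with log2 fold changes of 0.02 for Etfa (adjusted p = 0.82) and 0.10 for Etfb (adjusted p = 0.16). A same-strand gene, Gm45233, covers 69.1% of the exons of Etfb, so its counts are uncertain. The difference between Etfdh and these subunits was not itself tested.

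Among the 4 members listed by role as peroxisomal 1 fell (25.0%, against 15.5% of all genes tested). By the deposited annotation 11 members carry the term peroxisome and 5 fell, so members listed under other roles are among them. Acox3, an acyl-CoA oxidase for branched chains that starts peroxisomal oxidation, gave 51.6, 48.1 and 57.8 CPM in Veh and 39.4, 43.2 and 36.4 CPM in GSK. Both groups were spread, and they did not overlap. The log2 fold change was -0.40 (SE 0.080, adjusted p = 0.0024), passed under all 12 alternatives, and an antisense gene (4931431C16Rik) covers 10.2% of its exons. Acox3 lies on chromosome 5 from 35582981 to 35614208 (plus strand). The later peroxisomal enzymes Hsd17b4 and Acaa1a had log2 fold changes of 0.00 (adjusted p = 0.99) and -0.06 (adjusted p = 0.64), and the reductase Decr2 one of -0.24 (adjusted p = 0.085). Of the transcript words of Acaa1a, 16.9% are shared with its copy Acaa1b.

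The lipases Pnpla2, which opens triglycerides of lipid droplets, and Lipa, the lysosomal acid lipase, supply fatty acids from stores. Neither passed, with log2 fold changes of 0.10 (adjusted p = 0.21) and 0.09 (adjusted p = 0.26).

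Of the 3 listed regulators 2 were tested and 1 fell (50.0%, against 15.5% of all genes tested). Ppard, a nuclear receptor that binds fatty acids and drives oxidation genes including Cpt1a, gave 35.0, 35.6 and 34.9 CPM in Veh and 27.0, 27.3 and 24.9 CPM in GSK. Both groups were tight and far apart beside their spread. Ppard fell from 35.2 ± 0.355 to 26.4 ± 1.30 CPM (SD, n = 3; log2 fold change -0.41, SE 0.068, adjusted p = 6.81e-04), and passed under all 12 alternatives. Ppara, the related receptor that leads this programme in liver, had 29 reads over all samples, as 7, 4 and 5 in Veh and 1, 0 and 12 in GSK. These counts were too low for the test, and GSK replicate 3 held most of the GSK reads. Ppargc1b, a coactivator of mitochondrial genes, had a log2 fold change of 0.29 (adjusted p = 0.14) with overlapping groups.

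Ppard lies on chromosome 17 from 28232754 to 28301469 (GRCm38, plus strand). Its upstream sequence is shown because Ppard had the smallest p after Cpt1a among the members that fell. Whether the decreases in Ppard and Cpt1a are linked was not tested. The stretch chr17:28232504-28232699 (RefSeq, GRCm38.p6, plus strand) leaves out the 54 bases before the start that fall in an annotated exon, and the capitals mark CACGT, the reverse complement of ACGTG, 213 to 209 bases before the start.
Ppard: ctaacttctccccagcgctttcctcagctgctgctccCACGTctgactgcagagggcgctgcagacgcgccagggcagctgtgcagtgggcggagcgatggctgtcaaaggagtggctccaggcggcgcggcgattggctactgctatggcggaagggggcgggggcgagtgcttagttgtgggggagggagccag

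RefSeq held promoter entries for 32 of the 38 members, with 33 windows of 250 bases before a start. Searched on both strands, AGGTCA was found in 5 of them (Acadm, Acadvl, Cpt1a, Cpt1c and Echs1), or 15.2%, where 14.0% of the 32817 windows of all genes held it. ACGTG was found in 2 (Acadvl and Ppard), or 6.06% against 16.6%, and CACGTG in 0 against 6.02%. A match describes letters in these windows and is no evidence of binding. Of the AGGTCA genes, Cpt1a fell and the other 4 did not pass.

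The members not past the test were for the most part measured well enough to bound their change. Of these 25, 24 had at least 1000 reads over all samples, with log2 fold changes between -0.24 and 0.29, and their 95% intervals of the fold change all lay between 0.731 and 1.51. That range also holds the fold changes of members that fell, such as Cpt1a (0.795) and Ppard (0.751). It therefore does not set the members not past the test apart from those past it. The exception in depth was Cpt1c, whose interval ran from 0.741 to 2.68.

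Levels per kilobase of exon spanned a wide range among the members tested. Acadl, at 89.0 ± 6.45 CPM per kb in Veh (SD, n = 3), Acsl5, at 87.9 ± 1.41, and Etfb, at 82.8 ± 3.90, were highest, and Acadl and Acsl5 did not differ beyond their spread in Veh. In GSK, Acsl5 lay at 102 ± 5.32 and Acadl at 90.1 ± 0.995 CPM per kb. Cpt1a, at 21.3 ± 0.772 CPM per kb in Veh and 17.0 ± 0.677 in GSK, stood in the middle of the order, and its partner Cpt2 lay lower, at 7.73 ± 0.583 and 7.91 ± 0.504. Ppard lay at 10.7 ± 0.108 and 8.06 ± 0.396 CPM per kb. The lowest member tested was Cpt1c, at 0.180 ± 0.0830 in Veh, followed by Acad10 at 1.95 ± 0.161.

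**Figure D3:**
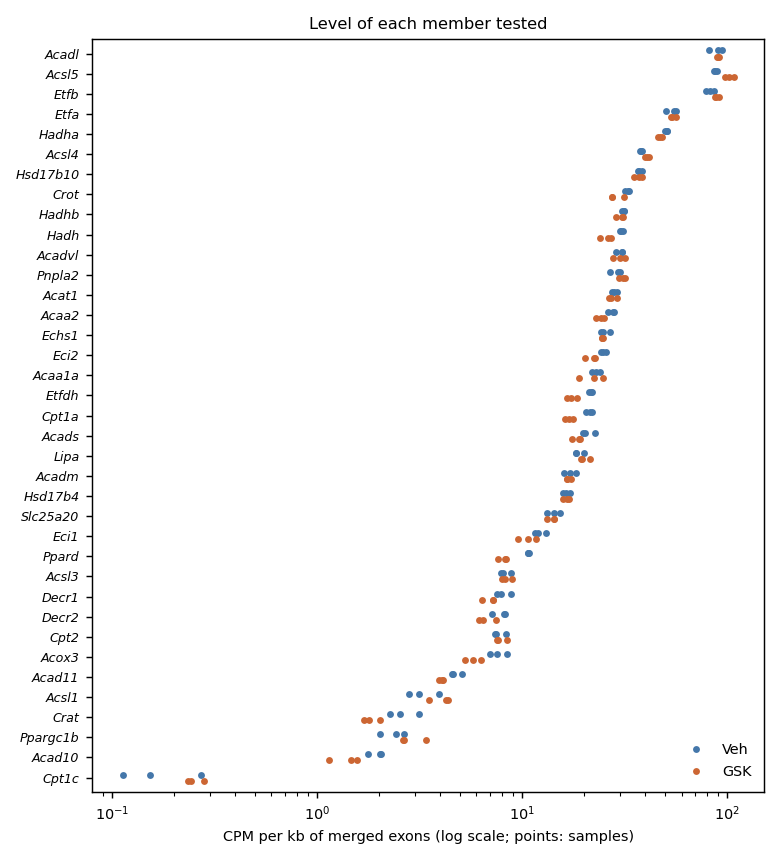
Level of each of the 37 members tested, in CPM per kilobase of merged exons (x axis, log scale), with 1 point per sample, 3 Veh and 3 GSK. The order runs from Cpt1c, at a Veh mean of 0.180, to Acadl, at 89.0.

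By the annotation deposited with the counts, the members that fell lay in both organelles. Of 11 members with the term peroxisome 5 fell, where 20.2% of the 109 genes tested with that term fell, and of 32 members with the term mitochondrion 10 fell and 1 rose, where 11.9% of 1483 genes with it fell. Of 12 members tested in the PPAR signaling pathway 3 fell and 1 rose, where 32.0% of 50 genes with that term fell. Members can carry several of these terms.

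The wider pathway was described with 94 further genes of fatty acid metabolism, of which 81 were tested. Here 20 fell (24.7%, against 15.5% of all genes tested) and 7 rose (8.64%, against 16.6%), and the median log2 fold change was -0.11. Without Veh replicate 3 there were 12 lower, and without Veh replicate 1 there were 3 higher. Past a fold change of 1.5 there were 9 lower and 1 higher of the 81, where 4.09% and 2.22% of all genes tested were. None of the 9 lower ones belonged to the group of other mitochondrial oxidation genes. In that group 4 of the 20 genes tested fell (20.0%, near the 15.5% of all genes tested), all by less than 1.5-fold. The spiral enzymes described above are members, so they could not be among these further genes. Of 15 further peroxisomal genes 6 fell (40.0%), among them Hacl1.

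Of the 9 lower genes, 3 serve fatty acid uptake and acyl-CoA synthesis. Slc27a1, a fatty acid transporter with acyl-CoA synthetase activity, gave 13.4, 11.3 and 13.2 CPM in Veh and 6.04, 6.12 and 6.20 CPM in GSK (log2 fold change -1.04, adjusted p = 6.43e-05). Acss2, the cytosolic and nuclear acetyl-CoA synthetase, gave 38.0, 34.4 and 41.4 CPM in Veh and 18.7, 24.3 and 21.7 CPM in GSK (log2 fold change -0.81, adjusted p = 1.07e-04). Its mitochondrial counterpart Acss1 gave 40.7, 33.3 and 34.5 CPM in Veh and 20.9, 29.3 and 20.0 CPM in GSK (log2 fold change -0.63, adjusted p = 0.015). For all 3 genes the groups were separate, and GSK replicate 2 was the highest GSK sample for both synthetases. Opposite-strand genes cover 3.98% of the exons of Acss2 (Acss2os) and 2.02% of those of Acss1 (E130215H24Rik). The acyl-CoA synthesis group held 3 genes that fell of 6 tested, with Acsbg1 (50.0%, against 15.5% of all genes tested), while Acsl5 among the members rose.

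Of 8 lipid droplet and lipolysis genes tested 4 fell (50.0%, against 15.5% of all genes tested), each past a fold change of 1.5. Plin2, a coat protein of lipid droplets, gave 23.6, 25.0 and 24.5 CPM in Veh and 14.3, 13.1 and 16.2 CPM in GSK (log2 fold change -0.75, adjusted p = 8.55e-05). Hilpda, an inhibitor of the lipase encoded by Pnpla2, gave 23.4, 21.6 and 26.4 CPM in Veh and 12.6, 7.84 and 12.0 CPM in GSK (log2 fold change -1.14, adjusted p = 5.44e-04). Dgat1, which makes triglycerides, gave 67.0, 56.7 and 65.7 CPM in Veh and 44.6, 43.0 and 35.0 CPM in GSK (log2 fold change -0.63, adjusted p = 6.86e-04). No GSK sample of these 3 genes reached the lowest Veh sample. Mgll, the monoglyceride lipase, rested on 52 reads (13, 10 and 19 in Veh and 7, 2 and 1 in GSK), with a log2 fold change of -2.08, a standard error of 0.60 and an adjusted p of 0.019. Its estimate was -3.18 without GSK replicate 1 and -1.66 without GSK replicate 3, and the call was lost without Veh replicate 3 (adjusted p = 0.082), GSK replicate 2 (0.051) or GSK replicate 3 (0.065). The antisense gene Gm26588 covers 3.15% of the exons of Mgll.

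The remaining genes past both thresholds were Hacl1, Pdk1 and Rxra. Hacl1, a peroxisomal lyase of alpha-oxidation, gave 22.1, 21.2 and 23.7 CPM in Veh and 14.4, 16.4 and 12.3 CPM in GSK (log2 fold change -0.63, adjusted p = 7.25e-04), with 58.2% of its exons covered by the same-strand gene Gm49387. Pdk1, a kinase that inhibits pyruvate dehydrogenase and so favours other fuels, gave 314, 292 and 301 CPM in Veh and 200, 207 and 173 CPM in GSK (log2 fold change -0.64, adjusted p = 2.47e-05). Both fell in every GSK sample relative to every Veh sample. Rxra, a receptor that pairs with the PPARs on DNA, gave 37.3, 45.0 and 43.7 CPM in Veh and 81.6, 74.9 and 89.8 CPM in GSK. It rose with a log2 fold change of 0.97 (adjusted p = 1.27e-05), in the same samples in which its partner Ppard was lower. Its relative Rxrb went the other way, from a mean of 60.7 CPM in Veh to 51.5 in GSK. Rxrb had a log2 fold change of -0.24 (adjusted p = 0.013), with all GSK samples below all Veh samples, and passed in 11 of the 12 alternatives. The other 6 that rose did so by less than 1.5-fold, and Dbi, Acaca, Acot7, Acot9 and Pprc1 were among them. Acaca makes malonyl-CoA, the inhibitor of Cpt1a, and had a log2 fold change of 0.16 (adjusted p = 0.016). It passed in 8 of the 12 alternatives and was the only gene past the test of 6 malonyl-CoA control genes tested. That share of 16.7% higher was near the 16.6% of all genes tested. In the same group, Acacb had a log2 fold change of -0.44 (adjusted p = 0.18), with all GSK samples below all Veh samples. Mlycd had one of 0.14 (adjusted p = 0.35). The bearing of these genes on Cpt1a was not tested.

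**Figure D4:**
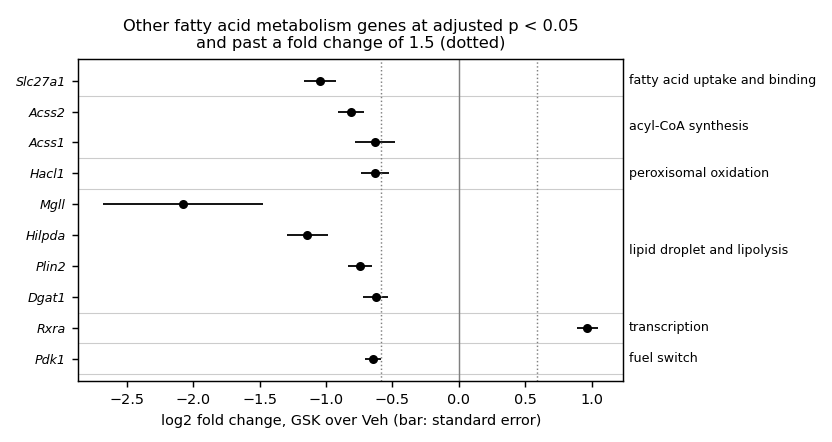
Log2 fold change (GSK over Veh, x axis; bars are standard errors, n = 3 per group) of the further fatty acid metabolism genes past both thresholds, grouped by function, with dotted lines at a fold change of 1.5. Of these, 9 lie left of the left dotted line, from -0.63 for Dgat1 to -2.08 for Mgll, and 1, Rxra, lies right of the right line at 0.97.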

How the data were processed

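RNA was sequenced from 3 Veh and 3 GSK cultures. The authors trimmed reads with Trimmomatic, mapped them to GRCm38 with HISAT2 (version 2.1.0) and counted them per gene with HTSeq (version 0.11.2). The deposited values are these whole read counts, without normalization. The annotation release and the strand setting of the counting are not given in the sources used here, so exon overlaps are stated for named genes. Per the submitters' processing notes Cufflinks and DESeq2 were also used, and no output of theirs was used here.

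From the counts, GSK was compared with Veh by the quasi-likelihood test of edgeR (version 4.0.16, with its robust option; R version 4.3.3). Libraries were scaled by TMM, low genes were removed by filterByExpr, and p-values were adjusted by Benjamini-Hochberg over the 11698 genes left. A gene was said to rise or fall when its adjusted p was under 0.05, and genes that also passed a 1.5-fold change were counted apart. Standard errors came from the test statistic. With 3 samples against 3, an exact permutation test (two-sided) has a smallest possible p of 0.1, and no such test of a single gene was made. DESeq2 (version 1.42.0), RLE and upper-quartile scaling, 2 other filters, a replicate block and leaving out each sample were the 12 alternatives, with a test against a fold change of 1.5 besides. Exon lengths, overlaps and shared 31-base words came from GENCODE vM21, and gene locations and promoters from RefSeq tables of GRCm38.p6. The test was checked on simulated counts.

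The members, the 94 further genes and the markers were chosen with earlier results of these data known. Values per sample were given for each member past the test, for Cpt1a, Cpt2, Slc25a20, Acadm, Acadvl, Hadha and Ppara whatever their p, and for members past a fold change of 1.5. Of the further genes, those past both thresholds and the 8 with the smallest p were named. Acsbg1, Rxrb, Acaca, Acacb, Mlycd and other genes that rose were named after their values were seen. Some of the further genes are counted but not reported here by name. Total counts lay between 18288447 and 19846720 per sample.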

Additional observations from a re-analysis of the deposited data

How the results depend on the processing

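Against 1 higher and 11 lower members, DESeq2 gave 7 lower and the replicate block 7 lower, both without Acad10, Acad11, Acaa2 and Eci2. Upper-quartile scaling gave 14 lower, adding Acads, Hadha and Decr1. RLE scaling gave 11, a filter of at least 1 CPM in 3 samples 12, and no filter on low counts 9. Leaving out single samples gave 5 to 10 lower and 1 to 2 higher. The lowest count, 5, came without Veh replicate 3, and 6 remained without Veh replicate 1 or GSK replicate 1. Of the 11 lower calls, 5 (Cpt1a, Hadh, Etfdh, Acox3 and Ppard) held under every alternative. Past a fold change of 1.5, leaving out samples gave 0 to 1 lower members. Of the further genes, 3 to 7 were higher and 12 to 18 lower with samples left out, with 3 higher without Veh replicate 1 and 12 lower without Veh replicate 3. The members' median log2 fold change was -0.074 with upper-quartile scaling, which moved the median of all genes to -0.039, and -0.059 to -0.041 with samples left out. The estimates of 11 members, 0 of them past the test, changed sign under some alternative: Cpt2 with upper-quartile scaling (-0.00085), and with samples left out Cpt2 (-0.021 to 0.099), Slc25a20 (-0.093 to 0.016), Acadm (-0.075 to 0.020) and Acadvl (-0.058 to 0.039), and likewise Acsl3, Acadl, Echs1, Hsd17b10, Etfa, Acaa1a and Hsd17b4. Apart from the constructions themselves, the cause was not tested. Same-numbered samples deviated together with correlations of -0.052, -0.081 and 0.16, so the numbers were not treated as pairs, and whether they mark a shared mouse was not settled. Of 322 single-gene values under alternatives, 274 kept their direction and side of the threshold. These cover the named genes only, most of them chosen for passing the test in these data, so they do not measure how stable the members are. Depth limits Cpt1c, Ppara and Mgll.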
